A study of Mus musculus with 2 samples.

Results

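Tumour macrophages were examined in single-cell RNA of mouse pancreatic tumours. They were the cells with at least 0.2% of their UMIs (unique molecular identifiers, 1 per captured RNA molecule) from C1qa, C1qb, C1qc, Tyrobp and Fcer1g together and with at least 1 UMI in at least 2 of the 3 C1q genes. A barcode was kept if it had 500 or more genes, 1000 or more UMIs and no more than 20% of UMIs from mitochondrial genes. This gave 65 macrophages among 2018 kept cells. The EL1 library held 28 among 1113 kept cells, or 2.52% (95% interval 1.68 to 3.62), and the WTg library held 37 among 905, or 4.09% (2.89 to 5.59). Intervals of shares are exact Clopper-Pearson, those of levels exact Poisson and those of ratios exact conditional binomial. All of them cover counting error only, and each group was 1 library, so the spread between animals is unknown and no difference was tested.

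EL1 mice (EL1-Luc/EL1-Tag, FVB/N) carry the SV40 T antigen and firefly luciferase, each driven by the rodent pancreatic Elastase I promoter, which is active in acinar cells. WTg mice (EL1-Luc/EL1-Tag x CAG-Mettl3) carry the same transgenes together with the coding sequence of Mettl3 behind the CAG promoter, which is active in most cell types. Both tumours were taken at 6 weeks of age and are labelled as epithelial cells of the pancreas. The Mettl3 mice were made in C57BL/6, so strain background and transgene cannot be told apart. How many animals, and of which sex, went into a library is not given in the sources used here. Tumours were digested with enzymes, strained, treated to lyse red cells and stained before loading, steps that can set the share of any cell type.

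Macrophages engulf dying cells and debris, digest them in lysosomes and can show peptides of what they took up to T cells on MHC class II molecules. In the pancreas and in its tumours they come partly from cells seeded before birth that renew themselves in the tissue and partly from blood monocytes. Genes such as Lyve1, Timd4, Vsig4 and Folr2 are commonly used to mark long-lived resident macrophages. The C1q chains form the recognition part of the classical complement pathway, and Tyrobp and Fcer1g are adaptors through which activating receptors signal.

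The 65 macrophages had a wide range of depth. In EL1 a macrophage had 1455 to 58783 UMIs, with a median of 17927, and the 28 cells summed to 498376. In WTg the range was 1068 to 67147, with a median of 26266, and the 37 cells summed to 929378. A count of 3 UMIs, used below where a library had 0, corresponds to 6.02 CPM (UMIs per 1000000 of the macrophages' own UMIs) in EL1 and to 3.23 CPM in WTg. The median mitochondrial share was 4.89% and 4.98%. The libraries shared 15 barcodes, of which 0 were macrophages. A doublet caller marked 0 macrophages of EL1 and 1 of WTg, and both libraries kept all their macrophages.

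**Figure D1:**
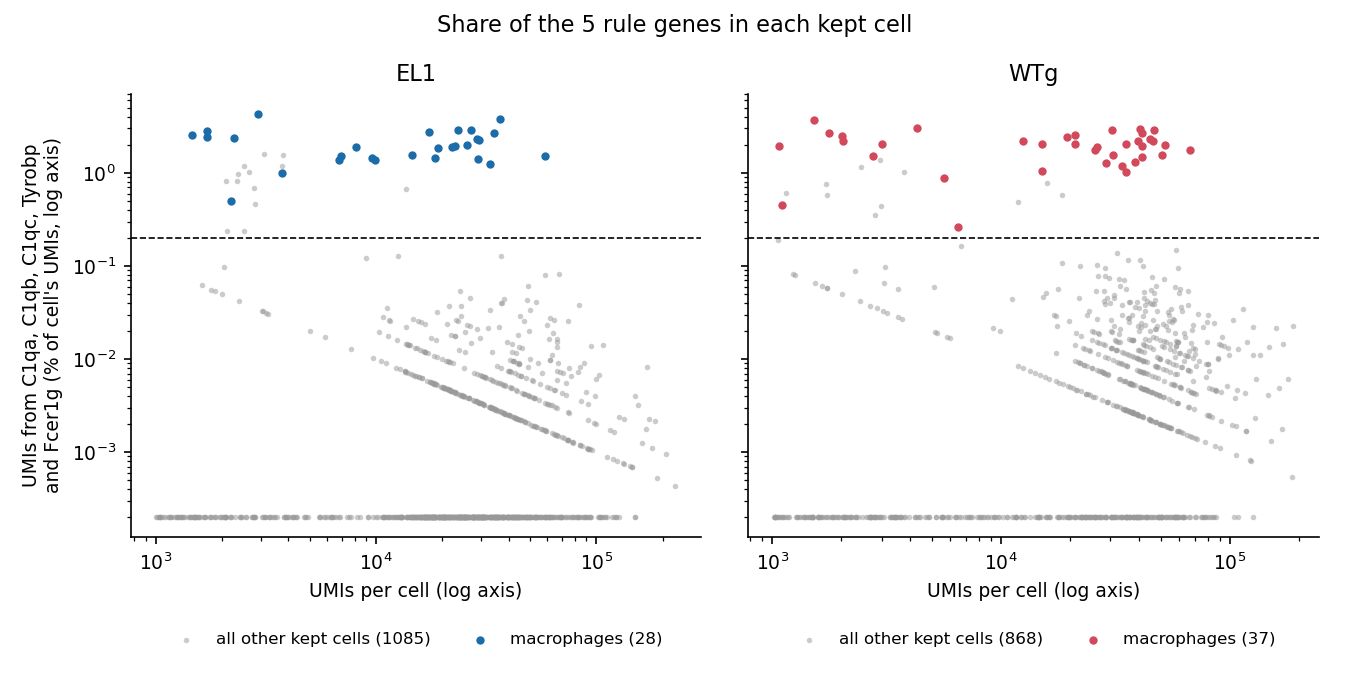
Each point is 1 kept cell, by its UMIs (horizontal axis, log scale) and by the percent of its UMIs from the 5 genes of the rule (vertical axis, log scale), with macrophages coloured, all other kept cells in grey, the dashed line at 0.2% and cells with none of these UMIs drawn in the bottom row. Macrophages lay well above the line at all depths except for 1 WTg cell at 0.262%, and grey points above the line are cells with UMIs in fewer than 2 C1q genes.

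The genes of the rule are described here as what chose the cells. The median macrophage took 1.92% of its UMIs from them in EL1 and 2.02% in WTg. The lowest cells inside the threshold stood at 0.503% and 0.992% in EL1 and at 0.262% and 0.455% in WTg. Among cells outside it with UMIs in at least 2 C1q genes, the highest stood at 0.128% in EL1 and 0.166% in WTg. A further 13 cells of EL1 and 11 of WTg passed 0.2% but had 0 C1q genes detected, and 10 and 6 of these were other leukocytes, defined as kept cells with Ptprc, the common leukocyte antigen, and neutrophil, T, NK or B cell genes. C1qb was at 6527 CPM in EL1 macrophages (6305 to 6755) and at 6156 CPM in WTg macrophages (5997 to 6317).

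Genes that the rule did not use were checked against the label, although all genes of the chosen cells follow from that choice and none is a test. Of 12 macrophage genes, 12 were more than 2-fold higher in the macrophages than in all other kept cells in both libraries. Csf1r, the receptor for the macrophage growth factor CSF1, was at 648 CPM in EL1 macrophages against 0.240 CPM in the other cells, and at 448 CPM against 0.842 CPM in WTg. Adgre1, which encodes the F4/80 antigen, was at 361 and 238 CPM in macrophages and at 0.0267 and 0.187 CPM elsewhere. Lyz2, which encodes lysozyme, was found in 28 of 28 and 37 of 37 macrophages.

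The 15 genes that stood highest over the other cells, by the smaller ratio of the 2 libraries, spanned log2 ratios of 9.99 to 12.74. Besides C1qb and C1qc they were Trem2, a receptor for lipids, the Fc receptors Fcgr2b, Fcgr3 and Fcgr4, the scavenger receptor Msr1, the ficolin Fcna, the adhesion molecule Vcam1, the platelet factor gene Pf4, the coagulation factor gene F13a1, Aif1, Adgre1, Ms4a7 and the proton pump subunit gene Atp6v0d2. Trem2 was at 536 CPM in EL1 and 640 CPM in WTg macrophages. Vcam1 was at 2867 CPM and 3112 CPM. The size of these ratios follows from how the cells and then the genes were chosen.

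Markers of other cell types were low in the macrophages, and several lists differed between the libraries. The acinar list, digestive enzyme genes, summed to 3409 CPM in the macrophages of EL1 and 1367 CPM in those of WTg. With each cell weighted equally the list median turned from -1.46 to 0.35. Acinar genes gave up to 3.06% of a single macrophage's own UMIs in EL1 and up to 9.01% in WTg. The WTg cell with 9.01% had only 0.455% of its UMIs from the rule genes. The WTg cell lowest by the rule, at 0.262%, had 2.04% acinar and 18.7% mitochondrial UMIs. Whether these barcodes hold macrophages only was not tested. The red blood list reached 895 CPM in EL1 against 8.61 CPM in WTg, and 181 of the 196 Hba-a1 UMIs of EL1 were in 1 cell. T or NK cell genes gave 50.2 CPM over EL1 macrophages and 117 CPM over WTg macrophages, where Il7r, a cytokine receptor gene, had 1 and 43 UMIs. Neutrophil genes summed to 36.1 and 26.9 CPM, endocrine genes to 106 and 35.5 CPM, and duct genes to 211 and 229 CPM. B, dendritic, mast, endothelial and fibroblast lists each summed to at most 34.1 CPM in either library. Beside the differences described next, the part of these acinar, red blood, endocrine and T or NK UMIs was not tested.

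Between the libraries, 6590 genes had at least 20 UMIs over all macrophages, and their median log2 ratio of WTg over EL1 was -0.04. Of these genes, 4.72% (311) were at least 2-fold higher and 7.0% (461) at least 2-fold lower in WTg. With TMM scaling, which shifts every ratio by 0.10, the median became 0.06. All counts of genes past a fold of 2 below are to be read against these shares.

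**Figure D2:**
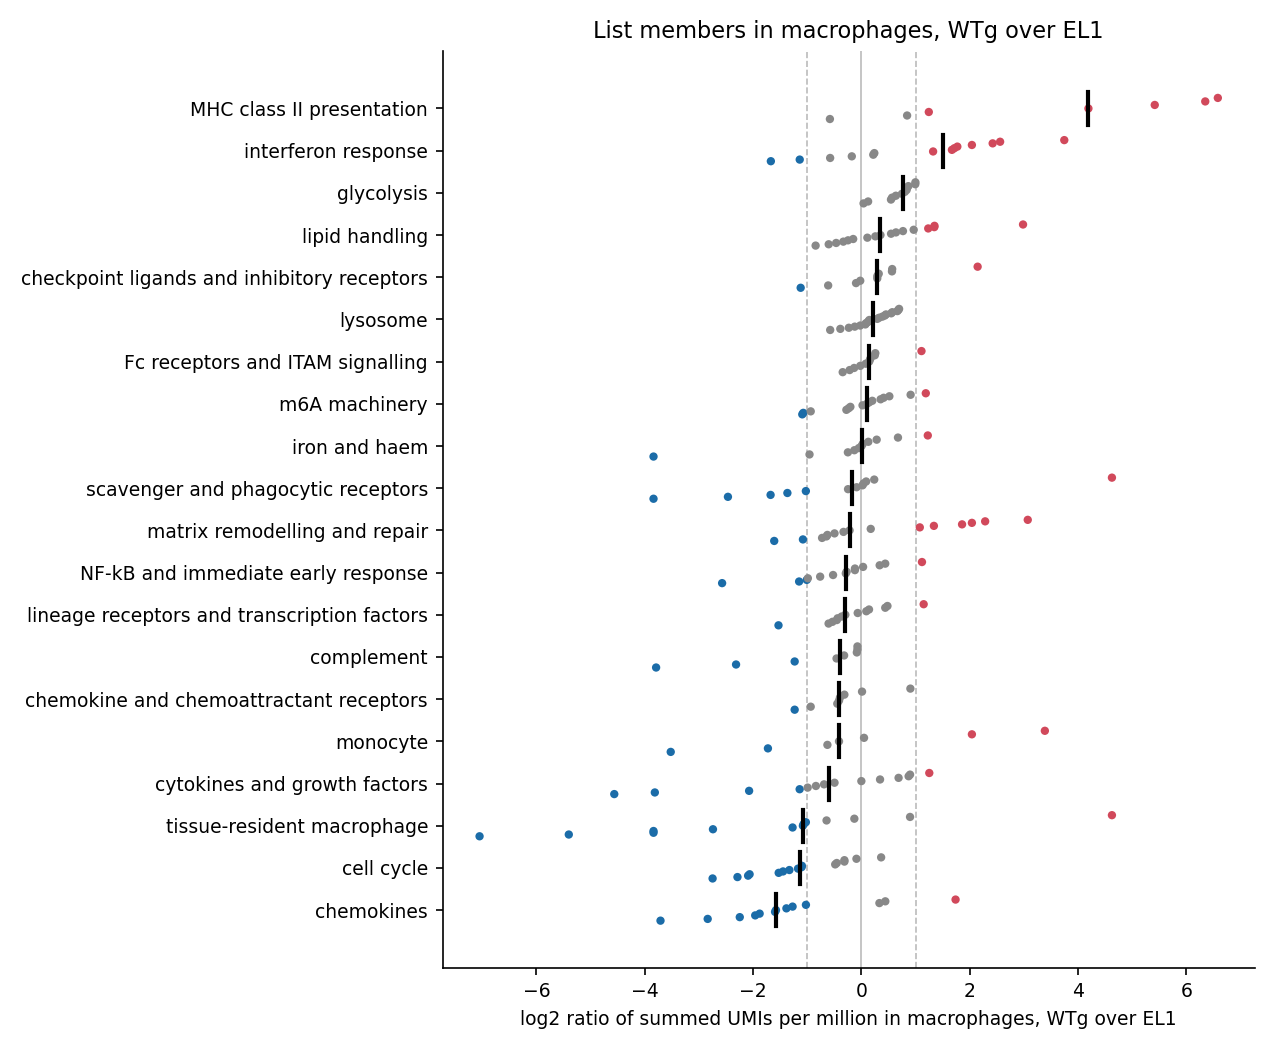
Each point is a gene with at least 20 UMIs over the macrophages, placed by its log2 ratio of WTg over EL1 (horizontal axis) in the row of its list, with the list's median marked. MHC class II presentation had the highest median (4.19) among the lists drawn, and chemokines had a median of -1.58.

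MHC class II presentation had the median furthest from that of all genes among the 21 lists of macrophage biology. Of 7 measured genes of antigen presentation, 5 were at least 2-fold higher in WTg macrophages and 0 lower, with a median of 4.19. In all other kept cells the median of the same list was 1.82. Cd74, the invariant chain that guides class II molecules to the endosome, had 101 UMIs over the EL1 macrophages (203 CPM, 165 to 246) and 3439 over those of WTg (3700.3 CPM, 3578 to 3826), a log2 ratio of 4.19 (3.90 to 4.49). H2-Aa, an alpha chain, had 10 UMIs in EL1 and 1518 in WTg, a ratio of 6.35 (5.46 to 7.41). H2-Ab1, its beta chain partner, had 18 and 1432 UMIs, a ratio of 5.41 (4.75 to 6.17). H2-Eb1, the beta chain of the other class II molecule, had 3 and 535 UMIs, a ratio of 6.58 (5.02 to 8.86). With a minimum of 10 UMIs per gene, which lets in more low genes, the list median was 1.76, and with no minimum 1.24. In these 4 genes WTg macrophages were far above EL1 macrophages, with counting intervals that stayed above a log2 ratio of 3.

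The genes that load peptides and co-stimulate T cells differed less. H2-DMb1, a chain of the peptide exchange factor, was at 72.2 CPM in EL1 and 171 CPM in WTg macrophages, with a log2 ratio of 1.24 (0.71 to 1.81), and H2-DMa, its partner, had a ratio of 0.84 (0.39 to 1.32). The DM beta chain has a near-identical neighbour, H2-DMb2, so reads may be split between them. Cd86, a co-stimulatory ligand, went the other way, from 261 CPM in EL1 to 174 CPM in WTg macrophages, with a ratio of -0.58 (-0.92 to -0.24). Ciita, the class II transactivator, had 0 UMIs in EL1 and 6 in WTg and was too low for the filter.

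Class II chains and their loading factors are controlled through a shared promoter module that ends in a Y box, an inverted CCAAT motif. Promoter sequence is shown for 3 of these genes, from RefSeq on GRCm38.p6, because they moved together or, for H2-DMb1, less far. The 150 bases before each start are given 5′ to 3′ on the gene's strand, and capitals mark the letters TGATTGG. H2-Aa lies at chr17:34287824-34287973 on the minus strand, H2-Eb1 at chr17:34305717-34305866 and H2-DMb1 at chr17:34153041-34153190, both on the plus strand.
H2-Aa: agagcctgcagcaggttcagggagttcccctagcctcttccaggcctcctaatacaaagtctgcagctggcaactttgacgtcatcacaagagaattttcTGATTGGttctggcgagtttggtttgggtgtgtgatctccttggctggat
H2-Eb1: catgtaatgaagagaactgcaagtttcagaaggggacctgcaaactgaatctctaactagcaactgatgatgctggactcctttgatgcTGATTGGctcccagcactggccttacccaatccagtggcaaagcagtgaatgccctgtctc
H2-DMb1: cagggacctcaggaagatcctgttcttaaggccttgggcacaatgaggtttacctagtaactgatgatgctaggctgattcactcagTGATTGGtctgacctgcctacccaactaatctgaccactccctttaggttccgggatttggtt
The motif began 50, 61 and 63 bases before the start in these promoters. Of 7 class II genes asked for, the promoters of 5 were searched on both strands for TGATTGG, and the others were left out. Among the 5, the motif was found in 4, the fourth being H2-DMb2, the near-identical neighbour of H2-DMb1. H2-DMa was the one without it. Among all 32851 promoter windows of this length, 5.71% held it. A match describes the letters in the window only.

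Class II UMIs were unevenly spread over the cells. The summed Cd74, H2-Aa, H2-Ab1 and H2-Eb1 UMIs were 132 in EL1 and 6924 in WTg. In EL1, 7 of 28 macrophages had any of them, 2 had at least 10 and 0 had at least 100. In WTg, 28 of 37 had any, 17 had at least 10 and 9 had at least 100. The highest 5 WTg cells had 1828, 1619, 1265, 613 and 469 UMIs, which made 83.7% of the WTg sum, while 9 WTg macrophages had none. In the cell with the largest share, these 4 genes gave 4.93% of all its UMIs. WTg macrophages thus ranged from no class II UMI to very many, and EL1 macrophages stayed at the low end.

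Macrophages with at least 2000 UMIs were thinned to that number, so that depth was equal, which left out 3 shallower cells of EL1 and 4 of WTg. Cd74 was seen in 1 of 25 EL1 cells (interval 0.101% to 20.4%) and in 15 of 33 WTg cells (45.5%, interval 28.1% to 63.6%). H2-Aa was seen in 0 of 25, which allows up to 13.7%, and in 12 of 33 (36.4%, 20.4 to 54.9). Without thinning Cd74 was in 5 of 28 and 22 of 37 macrophages. In all other kept cells thinned Cd74 was seen in 0.780% of EL1 and 1.49% of WTg cells, at median depths of 28634 and 36775 UMIs before thinning against 19077 and 30350 in the macrophages. In the dendritic and B cell lists most genes were at or near 0 in the macrophages, except for Batf3 (12 and 13 UMIs) among dendritic genes and Cd79b (13 and 24 UMIs) among B cell genes. Itgax, an integrin chain found on dendritic cells and on some macrophages and in none of the lists, had 13 UMIs in 8 EL1 macrophages and 108 in 18 WTg macrophages, a log2 ratio of 2.16 (1.32 to 3.11), and its part in the class II values was not tested. It was chosen after its values were seen. The dendritic list gave 34.1 CPM over EL1 macrophages and 17.2 CPM over WTg macrophages, with Flt3 at 0 and 1 UMIs, Zbtb46 at 1 and 0, and Ccr7 at 0 in both. Of the B cell genes, Ms4a1 and Pax5 were at 0 in both libraries. In other leukocytes, H2-Aa UMIs came mostly from cells with at least 10 UMIs of the B cell list. In EL1, 1 such cell had 36 H2-Aa UMIs and the other 15 leukocytes had 0, and in WTg 6 such cells had 218 and the other 16 had 4. Thinned H2-Aa was in 1 of 16 other leukocytes of EL1 and 7 of 20 of WTg.

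**Figure D3:**
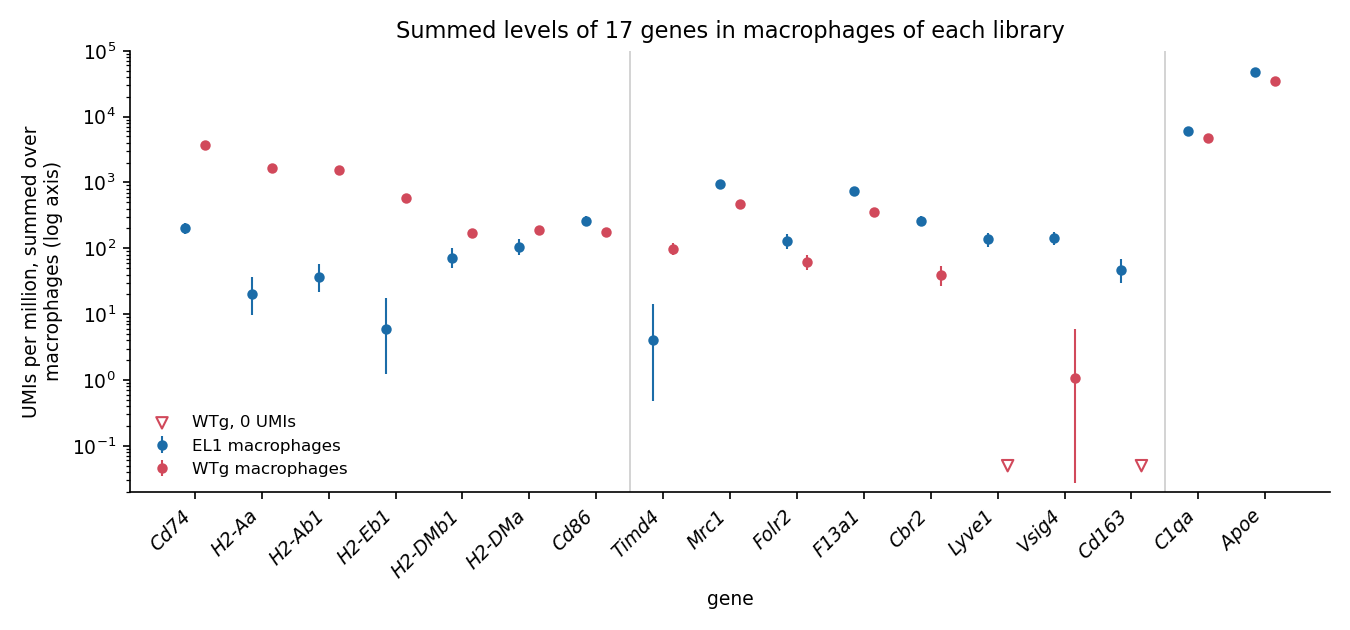
Summed UMIs over the macrophages of each library, as CPM (vertical axis, log scale) are plotted for 17 genes, with bars for exact 95% Poisson intervals and open triangles at the bottom for genes with 0 UMIs. WTg lay above EL1 for Cd74, H2-Aa, H2-Ab1, H2-Eb1 and Timd4 and below it for Lyve1, Vsig4, Cd163 and Cbr2, while C1qa and Apoe were within 1.5-fold.

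Markers of tissue-resident macrophages were mostly lower in WTg macrophages, though not all moved in one direction. Of 13 measured genes, 9 were at least 2-fold lower and 1 at least 2-fold higher in WTg, with a median of -1.08. Without the deepest EL1 macrophage 5 of 12 were lower (median -0.86), without the deepest WTg macrophage 6 of 13 were lower (median -0.97), so single cells set this count. Lyve1, a hyaluronan receptor, had 68 UMIs in 7 EL1 macrophages and 0 in WTg. With WTg put at 3 counts it was 42.3-fold lower there, and the interval put the log2 ratio at -5.06 or below. Vsig4, a complement receptor, had 71 UMIs in 3 EL1 macrophages and 1 UMI in WTg, a log2 ratio of -7.05 (-12.37 to -4.52). Cd163, the haptoglobin-haemoglobin receptor, had 23 UMIs in 6 EL1 macrophages and 0 in WTg. At 3 counts it was 14.3-fold lower in WTg, with a log2 ratio of -3.42 or below by the interval. Cbr2, a carbonyl reductase, had 129 and 36 UMIs, a ratio of -2.74 (-3.32 to -2.20), and 73.6% of the EL1 UMIs were in 1 cell.

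Timd4, a phosphatidylserine receptor used to engulf apoptotic cells, was the 1 resident marker at least 2-fold higher in WTg. It had 2 UMIs in 1 EL1 macrophage and 92 UMIs in 19 of 37 WTg macrophages, a log2 ratio of 4.62 (2.73 to 7.69). Thinned to 2000 UMIs, it was seen in 1 of 25 EL1 and 7 of 33 WTg cells, and in 0 of 16 and 0 of 20 other leukocytes. Thinned to 1000 UMIs, it was seen in 0 of 28 and 1 of 37 macrophages, so its share could not be compared at that depth. Folr2, the folate receptor beta gene, had a ratio of -1.07 (-1.61 to -0.53). Mrc1, the mannose receptor, was at 957 CPM in EL1 and 470 CPM in WTg macrophages, with a ratio of -1.03 (-1.22 to -0.84). Igf1, a growth factor, had a ratio of 0.90 (0.64 to 1.16), and Selenop, which exports selenium, differed little at -0.13 (-0.20 to -0.06).

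The 7 EL1 macrophages with a Lyve1 UMI held most of the UMIs of several further genes. They held 26.9% of all macrophage UMIs of EL1 but 98.0% of the Ccl2 UMIs, 99.0% of Ccl7, 90.3% of F13a1, 90.6% of Folr2, 90.7% of Cbr2 and 100% of Vsig4. Other resident markers were not gathered in them, since they held 21.7% of Cd163 and 17.1% of Igf1, and Pf4 lay between at 58.3%. Of the 7, the deepest EL1 macrophage, with 4 Lyve1 UMIs, had 516 of the 951 Pf4 UMIs and 95 Cbr2 UMIs. The Pf4 and Cbr2 shares thus rested mostly on that cell. The 7 cells held 20.4% of C1qa and 27.3% of Apoe, near their share of all UMIs, and 1.0% of Cd74, of which 74 of 101 UMIs were in 1 other cell. The 19 WTg macrophages with a Timd4 UMI held 71.1% of all macrophage UMIs of WTg and 78.3% of Cd74 and 74.6% of C1qa. These cells had a median of 39447 UMIs against 6051 in the other WTg macrophages, so depth and Timd4 detection moved together.

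**Figure D4:**
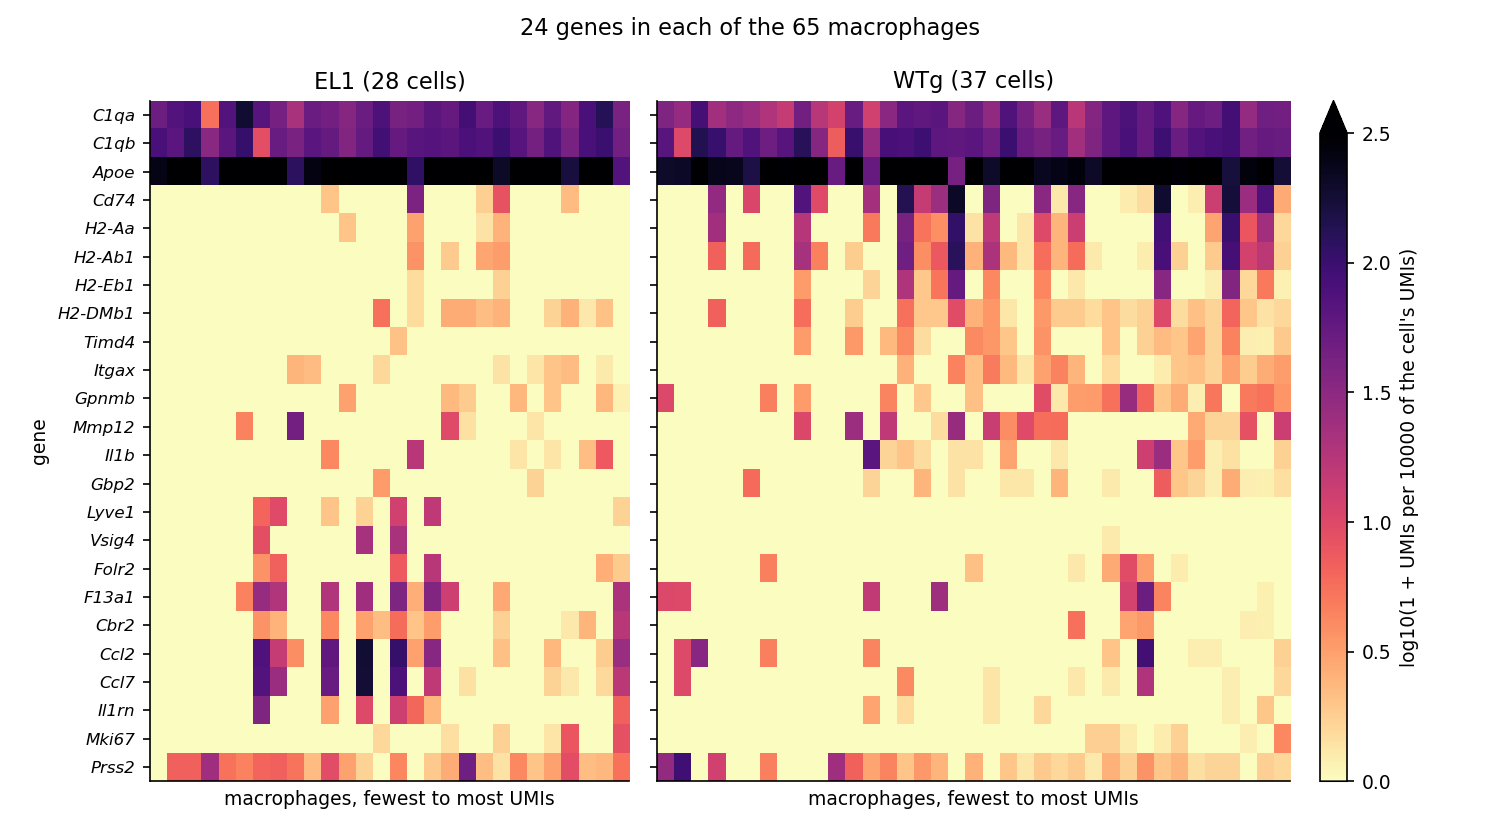
Each column is 1 of the 65 macrophages, ordered within its library from fewest to most UMIs, each row is 1 of 24 genes, and colour gives log10 of 1 plus the UMIs per 10000 of the cell's UMIs. Class II rows and Timd4 are filled mainly in WTg cells, Lyve1 and Vsig4 mainly in a few EL1 cells, and C1qa, C1qb and Apoe across both. Ccl2 is filled in 12 EL1 and 9 WTg cells and Ccl7 in 11 and 8, with 356 Ccl2 UMIs in 1 WTg cell. Colour is capped at 2.5, which Apoe passed in many cells.

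Summed over the macrophages, most chemokines were lower in WTg. Of 13 measured, 10 were at least 2-fold lower and 1 at least 2-fold higher, with a median of -1.58. The median macrophage took 0.222% of its UMIs from the list in EL1 and 0.172% in WTg, and the highest 4.15% and 3.37%. In EL1 the 7 cells with a Lyve1 UMI held 98.0% of the Ccl2 and 99.0% of the Ccl7 UMIs. Ccl2, which draws in monocytes, was at 1587 CPM in EL1 and 408 CPM in WTg macrophages, with a log2 ratio of -1.96 (-2.14 to -1.78), and 356 of the 379 WTg UMIs were in 1 cell. Ccl7, a relative of Ccl2, had 624 and 89 UMIs, a ratio of -3.71 (-4.05 to -3.39). Ccl24, an eotaxin, had a ratio of -2.84 (-3.55 to -2.18), Ccl3, a macrophage inflammatory protein gene, one of -2.25 (-2.85 to -1.67), and Cxcl2, which draws in neutrophils, one of -1.88 (-2.23 to -1.54). The exception was Ccl8, with 145 UMIs in EL1 and 902 in WTg, of which 729 were in 1 cell. Cxcl16 and Ccl4 did not reach a fold of 2, at 0.44 (0.17 to 0.72) and 0.33 (-0.18 to 0.86).

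Cytokines were mixed. Il1b, which encodes interleukin-1 beta, was at 126 CPM in EL1 and 301 CPM in WTg macrophages, with a log2 ratio of 1.25 (0.85 to 1.67), with UMIs in 6 and 15 cells. Thinned to 2000 UMIs, Il1b was in 4 of 25 and 4 of 33 cells, and thinned to 1000 UMIs in 3 of 28 and 5 of 37, so the shares gave no stable order. Il1a had a ratio of 0.87 (0.31 to 1.47). Il1rn, the natural antagonist of the interleukin-1 receptor, ran the other way, from 197 CPM in EL1 to 14.0 CPM in WTg macrophages, with a ratio of -3.81 (-4.77 to -2.97). Osm, oncostatin M, had a ratio of -2.07 (-2.66 to -1.51). Tnf had 16 and 15 UMIs, a ratio of -0.99 (-2.11 to 0.12), and Il6 had 0 in both libraries. Tgfb1, the transforming growth factor, differed little at 0.34 (0.09 to 0.60). Areg, amphiregulin, had 38 UMIs in EL1, 35 of them in 1 cell, and 0 in WTg. At 3 counts it was 23.6-fold lower in WTg, with a log2 ratio of -4.19 or below by the interval. Over the 14 measured cytokine and growth factor genes the median was -0.59, with 1 at least 2-fold higher and 4 lower. After thinning that median was 0.92, over 5 genes.

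Genes of the interferon response had a median log2 ratio of 1.497 over 14 genes. Of these, 8 were at least 2-fold higher in WTg and 2 lower. Several of the ratios rested on 1 cell, and with the top cell of each gene left out the median was 0.35. Summed, the 18 genes of the list reached 961 CPM over WTg macrophages, little above the 857 CPM of EL1, and the counting intervals overlapped. The median WTg macrophage took 0.0565% of its UMIs from the list, against 0.0607% for EL1. Gbp2, a guanylate-binding protein gene, had 6 and 60 UMIs, a ratio of 2.42 (1.22 to 3.93), with UMIs in 2 and 16 cells. Ifit2 had a ratio of 3.74 (1.13 to 9.10), but 21 of its 25 WTg UMIs were in 1 cell and without the top cell the ratio was -0.52. Zbp1, a sensor of nucleic acids, had 3 and 33 UMIs, a ratio of 2.56 (0.89 to 4.91), and Bst2, tetherin, was nearly level at 0.22 (-0.13 to 0.58). Ifi207 and Ifi27l2a were lower, at -1.14 (-1.58 to -0.70) and -1.67 (-2.22 to -1.14). With each cell weighted equally Ifi207 was at -0.21. In all other kept cells the median of the list was 0.15.

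Lysosomal genes differed little. Of 20 measured, 0 passed a fold of 2 in either direction, with a median of 0.22. Ctsd, a lysosomal protease gene, was at 6088 CPM in EL1 and 9035 CPM in WTg macrophages, with a log2 ratio of 0.57 (0.51 to 0.63). Psap, the precursor of the saposins, had a ratio of 0.66 (0.60 to 0.73), Gusb, a glucuronidase gene, one of 0.70 (0.37 to 1.03) and Lipa, the lysosomal acid lipase gene, one of 0.68 (0.46 to 0.91). Genes of glycolysis were all on the higher side in WTg, from 0.04 to 0.997 over 12 genes with a median of 0.77, and 0 passed a fold of 2. In all other kept cells their median was -0.17. Gapdh was at 1304 and 2191 CPM, a ratio of 0.75 (0.62 to 0.88), Pkm, pyruvate kinase, had one of 0.57 (0.38 to 0.76) and Tpi1, an isomerase gene, one of 0.99 (0.71 to 1.29). Eno1, an enolase gene, was closest to the threshold at 0.997 (0.73 to 1.27).

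Lipid-handling genes were higher in 4 of 17 and lower in 0, with a median of 0.35. Gpnmb, a lysosomal glycoprotein of lipid-laden macrophages, had 20 and 295 UMIs, a ratio of 2.98 (2.33 to 3.72), with UMIs in 7 of 28 and 20 of 37 cells. Fabp5, a fatty acid carrier gene, had a ratio of 1.35 (1.20 to 1.49), and Cd9, a tetraspanin gene, one of 1.23 (0.72 to 1.77). Apoc1, an apolipoprotein gene, also had a ratio of 1.35 (0.56 to 2.23), with 61 of its 76 WTg UMIs in 1 cell. Lgals3, galectin-3, had 1520 and 4410 UMIs, a ratio of 0.64 (0.55 to 0.72). Apoe, which carries lipids out of cells, was lower, at 47540.4 and 34416.6 CPM, a ratio of -0.47 (-0.49 to -0.44). Of 11 iron and haem genes, 1 was higher and 1 lower, and the ferritin chain genes Fth1 and Ftl1 were nearly level, at 0.28 (0.25 to 0.32) and -0.05 (-0.09 to -0.01). The list's median was 0.00, with Hmox1, haem oxygenase, at -0.96 (-1.03 to -0.88) and Ncoa4, a ferritin receptor gene, at 1.23 (0.78 to 1.70). With each cell weighted equally Ncoa4 was at 0.63.

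Of 8 measured complement genes, 3 were at least 2-fold lower in WTg and C1q was close to level. Among the 3, Cfb, factor B, which takes part in the alternative pathway, had a log2 ratio of -2.31 (-3.96 to -0.89) and C5ar1, the receptor of the C5a peptide, one of -1.23 (-1.50 to -0.96). The list's median was -0.39. Of 12 scavenger and phagocytic receptors, 5 were lower and 1 higher, with a median of -0.17. Clec10a, a galactose lectin, was at -2.46 (-2.97 to -1.98), Cd14, the co-receptor for bacterial lipopolysaccharide, at -1.37 (-1.60 to -1.13), and Itgam at -1.68 (-2.53 to -0.86). Among 11 Fc receptor and signalling genes, with a median of 0.14, only Fcgr4 passed a fold of 2, at 1.11 (0.63 to 1.61). The 13 lineage receptors and transcription factors had a median of -0.30. Of these, Cebpb, which drives myeloid genes, had a ratio of -0.61 (-0.73 to -0.49). Past a fold of 2, Csf2rb was higher at 1.15 (0.80 to 1.52) and Runx1 lower at -1.53 (-1.98 to -1.09). With each cell weighted equally Runx1 (-0.55), Cd14 (-0.57) and Fcgr4 (0.75) were within a fold of 2. Csf2rb (1.76), C5ar1 (-1.20) and Cfb (-3.55) stayed past it.

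Of 15 genes for matrix remodelling and repair, 6 were at least 2-fold higher and 2 lower in WTg macrophages, with a median of -0.22. Mmp12, the macrophage metalloelastase, had 54 and 365 UMIs, a log2 ratio of 1.86 (1.44 to 2.30). Of its EL1 UMIs 31 were in 1 cell, and with each cell weighted equally the ratio was 0.80. Mmp14 had a ratio of 1.34 (0.65 to 2.09) and Mmp13 one of 1.08 (0.67 to 1.50). Arg1, arginase 1, had 12 and 109 UMIs, but 88 of the 109 were in 1 cell. Retnla, a marker of alternative activation, had 0 UMIs in EL1 and 47 in 3 WTg cells. With EL1 put at 3 counts it was 8.4-fold higher in WTg, with a log2 ratio of 2.72 or above by the interval. Timp2, a protease inhibitor gene, differed little at 0.17 (-0.01 to 0.36). Of 10 inhibitory ligands and receptors 1 was higher and 1 lower, with a median of 0.29, and Sirpa and Cd300a had ratios of 0.56 (0.33 to 0.80) and 0.29 (0.04 to 0.55). Among inhibitory ligands and receptors, Cd274, which encodes PD-L1, had 4 and 33 UMIs, a ratio of 2.15 (0.65 to 4.103). The 4 EL1 UMIs were in 3 cells, and with each cell weighted equally the Cd274 ratio was 0.30. Siglece was lower with 14 and 12 UMIs, a ratio of -1.12 (-2.36 to 0.10). Chemokine and chemoattractant receptors had a median of -0.41, with Cxcr4 at 0.01 (-0.30 to 0.33), P2ry6 at -0.94 (-1.41 to -0.46) and C5ar1 the 1 of 8 past a fold of 2. Of 14 NF-kB and immediate early genes, 1 was higher and 3 lower, with a median of -0.28. Fos was at -1.15 (-1.55 to -0.75), Junb at -0.27 (-0.45 to -0.10) and Zfp36 at -0.52 (-0.74 to -0.31). With each cell weighted equally Fos was at -0.36. Of the same genes, Ier2 was lower at -2.57 (-3.48 to -1.74) and Tnfaip3, an inhibitor of NF-kB, higher at 1.12 (0.42 to 1.88).

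Cell cycle genes were carried by few cells. In EL1, 2 of 28 macrophages held 77.6% of the list's 557 UMIs, and in WTg 2 of 37 held 64.2% of 520. The list had 10 of 16 genes at least 2-fold lower in WTg, with a median of -1.14, and without the deepest EL1 macrophage 0 of 12 passed a fold of 2 and the median was -0.29. That cell had 46 of the 74 Mki67 UMIs of EL1, and also 174 of its 203 S100a4 UMIs. Top2a, a topoisomerase gene, had 55 and 21 UMIs, a ratio of -2.29 (-3.09 to -1.54), with 43 and 18 of them in 1 cell each, and Ccna2, cyclin A, one of -2.75 (-4.53 to -1.26). Pcna, a clamp of the replication fork, differed less at -0.46 (-0.82 to -0.09). Plk1, a mitotic kinase gene, had 3 and 2 UMIs. The monocyte list had a median of -0.41 over 7 genes, and 1.20 without the deepest macrophage of each library. Thbs1 had a ratio of -0.63 (-1.05 to -0.20), and Plac8 had 2 and 39 UMIs, 28 of these in 1 cell. Chil3, a chitinase-like gene, had 94 UMIs in 1 EL1 cell and 53 in 2 WTg cells.

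Mettl3, the catalytic subunit of the m6A methyltransferase and the gene of the transgene (chromosome 14, 52294841 to 52305128, GRCm38), had 4 UMIs in EL1 macrophages, or 8.03 CPM (2.19 to 20.5), and 17 in WTg macrophages, or 18.3 CPM (10.7 to 29.3). The log2 ratio was 1.19 (-0.43 to 3.22), whose interval includes 0. In all other kept cells the ratio was 2.16 (2.03 to 2.29), from 15.2 to 68.1 CPM. Thinned, Mettl3 was seen in 1 of 25 EL1 and 3 of 33 WTg macrophages, against 3.41% and 15.1% of the other cells. The depth in macrophages could not show whether the ratio there differs from that in the other cells, since the interval holds both values. Mettl3 overlaps Tox4 on the opposite strand, and whether the counting used strand is not given in the sources used here. The 15 measured m6A genes, Mettl3 included, had a median of 0.10, with 1 at least 2-fold higher and 2 lower. Of the writer complex, Wtap was at 0.10 (-0.54 to 0.77), Virma at 0.91 (-0.26 to 2.25), Cbll1 at -0.24 (-1.35 to 0.94) and Rbm15b at 0.20 (-1.18 to 1.74), while Mettl14 had 1 and 5 UMIs. The erasers Alkbh5 and Fto were at 0.02 (-0.57 to 0.64) and 0.35 (-0.62 to 1.41). Of the readers, Ythdf1, Ythdf3, Ythdc1, Ythdc2 and Hnrnpa2b1 lay between -0.28 and 0.52, and Ythdf2, which hastens decay of methylated mRNA, was at -0.94 (-1.61 to -0.26). Igf2bp1 and Igf2bp2 had 0 UMIs and Igf2bp3 had 4 and 2. The 2 lower genes were Zc3h13 and Rbm15, also of the writer complex, at -1.07 (-1.73 to -0.42) and -1.09 (-2.24 to 0.04).

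The genes with the highest ratios among those with at least 50 UMIs, spread over several cells, were H2-Eb1, H2-Aa, H2-Ab1, Gm10260, Timd4, Cd74, Gpnmb, Gm10334, Gbp2 and Plpp3. Among the 10 with the lowest were 1810009J06Rik, Hal, Lyve1, C4b, Ednrb, Il1rn, Ccl7, Ccl24 and Gpx3. Hal, histidine ammonia lyase, had 79 UMIs in 8 EL1 macrophages and 0 in WTg. With WTg put at 3 counts it was 49.1-fold lower there, with a log2 ratio of -5.29 or below by the interval. C4b, a complement gene with a near-identical copy, had 151 and 9 UMIs, a ratio of -4.97 (-6.12 to -4.00). Ednrb, an endothelin receptor gene, had 95 and 9 UMIs, a ratio of -4.30 (-5.47 to -3.31). Gm10260 had 0 and 201 UMIs and differed in the other kept cells too, by 8.91 (8.23 to 9.69). The trypsinogen-like genes Gm10334 and 1810009J06Rik also differed in the other cells, by 4.81 and -4.13, at levels far above those in the macrophages, and each has close relatives with which reads may be shared.

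Y-linked genes were seen in both libraries' macrophages. Ddx3y had 30 and 60 UMIs, Eif2s3y 31 and 47, Uty 12 and 16, and Kdm5d 5 and 8, while Xist and Tsix had 0 in both. Their ratios did not pass a fold of 2, for Ddx3y 0.10 (-0.55 to 0.78).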

How the data were processed

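The deposited values were counts of UMIs per gene and barcode for 32285 genes, which the authors made from 10x Chromium 3′ libraries with Cell Ranger 6.0.2, as the matrix header gives it. The submitters' processing notes name GRCm38, R 4.1 and Seurat 4.0.5. Whether counting used strand is not given in the sources used here. The EL1 library held 1621 barcodes and the WTg library 1488.

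Macrophage counts were summed per library and divided by all UMIs of the same cells (CPM). Intervals are at 95% and cover counting error only. A library at 0 UMIs was put at 3 counts, per library, and the fold is then the value at that count. The interval of such a ratio has no finite outer end. No fold was given where both libraries had at most 3 UMIs. Genes needed 20 UMIs over both libraries to be counted. Scrublet (scanpy 1.11.5, expected rate 2%) called 4 doublets among the kept cells of each library, all kept here. TMM scaling came from edgeR 4.0.16 (R 4.3.3), which was used for no test. The calculation of ratios and intervals was checked on simulated Poisson counts per gene and library, the counting model that the intervals assume. The simulation held no spread between cells or animals, so it cannot show how the intervals cover such spread.

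The members, gene lists and rules were chosen with earlier results of these data known. Named were the 2 genes with the highest CPM and the 2 with the largest ratio of each list, the 15 leading marker genes, the 10 highest and 10 lowest ratios among genes with at least 50 UMIs of which no cell held over 50% in the higher library and whose direction was the same under TMM and with cells weighted equally, and Mettl3, Plk1, sex-linked and interleukin-1 genes. Further list members were named after their values were seen, to describe their group. Of the list genes, 3 were not found once by symbol and were not analysed. Gene positions and promoters are on GRCm38. The alternatives were other cell filters and rules, doublets left out, thinning, other scalings, other minimum counts and leaving out single cells. Some genes that the naming rule selects are not reported here.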

Additional observations from a re-analysis of the deposited data

Results flagged for a closer look

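Barcodes that met the macrophage rule but failed the cell filter, 10 in each library, carried C1q UMIs that no comparison used. In EL1 these barcodes had C1qa at 4949.6 CPM (3729 to 6443), C1qb at 5579.55 CPM (4278 to 7153) and C1qc at 3689.7 CPM (2648 to 5006). In WTg they had C1qa at 3100.53 CPM (2215 to 4222), C1qb at 3488.1 CPM (2544 to 4667) and C1qc at 3488.1 CPM (2544 to 4667). They are given because these barcodes entered no comparison. The rule selects barcodes with UMIs of these genes, so levels above 0 follow from that choice and show nothing further.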

How the results depend on the processing

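No paired analysis was possible because there was only 1 library a group, with no test. The macrophage shares stayed within the counting interval of the reported value under every alternative run. The Mettl3 ratio did so wherever it could be computed, but thinning left too few Mettl3 UMIs for a ratio. For a list, the interval was the medians of its genes' interval bounds. Of the list medians, 331 stayed within it, 18 moved beyond it and 1, reported past a fold of 2, changed sign. Of the single-gene values, 1275 stayed, 173 moved and 2, reported past a fold of 2, changed sign. The moves were unevenly spread over the alternatives. After thinning to 2000 UMIs per cell, 33 genes stayed, 61 moved and 1 changed sign. With cells weighted equally 75 stayed and 38 moved, and with all 3 C1q genes required 113 stayed. Of the shares of macrophages with a UMI, 46 stayed and 18 moved. The count of genes at least 2-fold higher (311) and lower (461) followed the minimum count: 596 and 737 at 10 UMIs, 119 and 204 at 50 UMIs, and 854 and 1046 with no minimum beyond 1 UMI. Thinning to 2000 UMIs per cell gave 65 and 72, and weighting each cell equally gave 742 higher genes. With cells weighted equally the median was -0.67 for complement, 0.11 for lipid handling, 1.17 for the monocyte list and 0.35 for the acinar list. After thinning, which left fewer genes, it was 0.14 over 8 lineage genes, -0.84 over 6 resident markers and 0.92 over 5 cytokine and growth factor genes. It was 0.77 over 4 checkpoint genes and -0.34 over 8 acinar genes, and the monocyte value of 2.85 was that of 1 gene. Leaving out the deepest macrophage of each library, an alternative chosen after seeing the data, gave -0.80 for resident markers and 1.20 for the monocyte list. The monocyte median was -1.73 over 3 genes at 50 UMIs. The class II median was 5.53 with the top cell of each gene left out, 1.76 at 10 UMIs and 1.24 with no minimum. The acinar median was -1.13 with the rule at 0.1%, -0.63 without the tenth of cells richest in acinar and endocrine UMIs and -0.81 with the top cell of each gene left out. Atp6v0d2 turned to -0.0135 after thinning and Ifit2 to -0.52 without its top cell. The medians of the monocyte, cytokine and lineage lists, all reported within a fold of 2, changed sign in some of these values too. Except where fewer genes or cells entered by construction, the cause was not tested. Depth limits Mettl3, Plk1 and Tnf.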

Other observations

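C1qa was detected outside the macrophages where the other C1q chains were not. In all other kept cells of EL1 there were 1234 C1qa UMIs and 34 C1qb UMIs, in 349 and 33 of 1085 cells, and in those of WTg 3256 and 46 UMIs, in 473 and 40 of 868 cells. This gave 36.3 C1qa UMIs per C1qb UMI in EL1 and 70.8 in WTg, against 0.920 and 0.782 in the macrophages of the same libraries. Cells with C1qa and neither C1qb nor C1qc numbered 320 and 426. The rule chose the macrophages by these genes, so the contrast follows in part from that choice and is no test. Thinned to 2000 UMIs, C1qa was in 5.56% of the other cells of EL1 (4.23 to 7.14) and in 15.1% of those of WTg (12.7 to 17.7), and in 0 of 16 and 0 of 20 other leukocytes.

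Lyve1 also occurred outside the macrophages, in 128 of 1085 other kept cells of EL1 and 167 of 868 of WTg, with a log2 ratio of WTg over EL1 of 1.45 (1.21 to 1.69), the direction opposite to that in the macrophages.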
